A study of Homo sapiens with 10 samples.

Results

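The genes described here encode the heat shock proteins and the J-domain proteins that work with them. They were chosen by symbol among protein-coding genes: HSP90A genes (HSP90AA1 and HSP90AB1), HSPA, HSPB and HSPH genes with a number, HSPD1, HSPE1, the DNAJA, DNAJB and DNAJC genes, and the regulators HSF1 and HSF2. HSPA5 was left out. This gave 71 of 19821 protein-coding genes on chromosomes 1 to 22 and X, in 8 families. The cells were wild-type HCT116, an established human colorectal carcinoma line, with no treatment named in the labels, and the assay was CUT&Tag, in which an antibody brings a transposase to the bound protein and the enzyme tags the DNA beside it. Of the 10 samples, 3 were for POLR1A (core subunit of RNA polymerase I, the enzyme of ribosomal RNA genes), 3 for POLR2A (core subunit of RNA polymerase II, the enzyme of messenger RNA), 3 for the heterochromatin mark H3K9me3 and 1 for the promoter mark H3K4me3. Per the study's design text, replicates were made on different days, each from a newly thawed vial of cells. Every target had 1 list of peaks with no value for a replicate, so each value below is the authors' single value, with no SD and no test over samples.

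Chaperones bind unfolded or partly folded proteins. HSP70 proteins, encoded by the HSPA genes, take up and release clients in a cycle driven by ATP, J-domain proteins deliver clients and trigger the hydrolysis, and HSPH1 and its relatives exchange the nucleotide. HSP90 proteins act later, on clients close to their native fold. HSPD1 and HSPE1 form the folding chamber of mitochondria, and the HSPB proteins are small chaperones that hold clients without ATP. Under heat or proteotoxic stress the factor HSF1 binds heat shock elements, arrays of inverted GAA units, before its target genes and raises their transcription. No stress is named for the cells here.

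The bases before the start of the genes whose elements or missing peaks matter below are given first. They were read from RefSeq (GRCh38.p14), which held 63 of the 71 genes with 83 starts. DNAJC1, DNAJC5B, DNAJC22, DNAJC24, HSF1, HSPA12B, HSPA14 and HSPB2 had no entry. Each run holds the 250 bases before 1 annotated start, 5′ to 3′ on the strand of the gene. Capitals mark heat shock elements: GAANNTTC or TTCNNGAA, which read the same on both strands, and their joined forms of 3 units, GAANNTTCNNGAA and TTCNNGAANNTTC, which contain the shorter ones. The first 6 are all the genes with a joined form, and DNAJB1 and HSPA1A are shown as classical heat-inducible genes with shorter elements.
HSPD1 (chr2:197499841-197500090, minus strand): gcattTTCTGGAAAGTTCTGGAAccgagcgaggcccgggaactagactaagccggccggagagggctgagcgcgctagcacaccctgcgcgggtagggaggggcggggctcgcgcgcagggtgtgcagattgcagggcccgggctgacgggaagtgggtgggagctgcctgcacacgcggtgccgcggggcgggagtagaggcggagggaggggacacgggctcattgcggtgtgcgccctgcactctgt
HSPA8 (chr11:123062137-123062386, minus strand): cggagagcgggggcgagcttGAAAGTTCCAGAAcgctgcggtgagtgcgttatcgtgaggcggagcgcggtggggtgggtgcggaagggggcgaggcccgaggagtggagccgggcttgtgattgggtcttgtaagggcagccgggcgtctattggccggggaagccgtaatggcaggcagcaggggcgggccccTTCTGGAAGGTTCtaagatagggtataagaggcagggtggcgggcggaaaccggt
HSP90AA1 (chr14:102087045-102087294, minus strand): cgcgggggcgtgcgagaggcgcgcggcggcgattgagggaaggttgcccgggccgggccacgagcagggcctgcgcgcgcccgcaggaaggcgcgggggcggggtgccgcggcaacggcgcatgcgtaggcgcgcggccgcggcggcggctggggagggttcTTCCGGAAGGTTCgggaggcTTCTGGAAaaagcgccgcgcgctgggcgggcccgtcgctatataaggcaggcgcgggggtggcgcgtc
HSP90AB1 (chr6:44247693-44247942, plus strand): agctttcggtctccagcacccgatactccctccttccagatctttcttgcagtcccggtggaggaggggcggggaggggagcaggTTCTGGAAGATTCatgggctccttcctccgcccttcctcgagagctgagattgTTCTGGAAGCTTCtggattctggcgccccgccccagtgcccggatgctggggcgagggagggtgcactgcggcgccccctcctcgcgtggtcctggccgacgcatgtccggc
HSPA6 (chr1:161524290-161524539, plus strand): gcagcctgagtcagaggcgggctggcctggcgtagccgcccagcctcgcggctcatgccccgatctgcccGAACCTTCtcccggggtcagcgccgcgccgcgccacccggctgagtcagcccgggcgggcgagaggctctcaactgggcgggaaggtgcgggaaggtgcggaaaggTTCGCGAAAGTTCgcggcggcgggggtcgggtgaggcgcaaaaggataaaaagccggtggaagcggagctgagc
DNAJB6 (chr7:157336754-157337003, plus strand): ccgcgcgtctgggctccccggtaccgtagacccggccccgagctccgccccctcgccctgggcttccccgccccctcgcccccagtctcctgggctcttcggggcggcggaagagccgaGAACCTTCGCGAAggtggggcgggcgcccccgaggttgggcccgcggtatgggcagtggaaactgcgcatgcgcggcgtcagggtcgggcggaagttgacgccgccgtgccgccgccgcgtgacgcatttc
DNAJB1 (chr19:14518398-14518647, minus strand): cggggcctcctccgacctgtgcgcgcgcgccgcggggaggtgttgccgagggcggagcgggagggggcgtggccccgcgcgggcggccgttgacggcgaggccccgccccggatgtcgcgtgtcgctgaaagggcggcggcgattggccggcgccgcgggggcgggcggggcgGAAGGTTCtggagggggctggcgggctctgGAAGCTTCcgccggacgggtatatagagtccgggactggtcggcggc
HSPA1A (chr6:31815293-31815542, plus strand): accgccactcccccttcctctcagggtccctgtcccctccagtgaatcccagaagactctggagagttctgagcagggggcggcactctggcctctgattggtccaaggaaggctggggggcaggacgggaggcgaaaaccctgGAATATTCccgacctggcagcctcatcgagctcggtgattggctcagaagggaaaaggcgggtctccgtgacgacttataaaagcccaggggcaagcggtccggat

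A joined form stood in 6 of the 83 windows (7.23%), against 0.366% of the 22156 windows of all protein-coding genes, and either shorter element in 20 windows (24.1%) against 10.03%. A TATA box (TATAAA on either strand) stood in 13 windows (15.7%), against 9.0% of all windows. These are matches of letters, not measured binding. The genes with a joined form split between targets. HSPD1 and HSPA8 had a POLR1A peak within 1 kb of the start that carries it. HSP90AA1, HSP90AB1, HSPA6 and DNAJB6 had none within 1 kb of that start. The joined form was present in 2 of 29 windows with POLR1A within 1 kb of the start (6.90%) and in 4 of 54 without it (7.41%).

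A peak was counted for a gene when it lay within 1 kb of either annotated gene end. POLR1A was found at 23 of the 71 genes (32.4%), against 11.2% of all protein-coding genes. POLR2A was found at 44 (62.0%), against 41.3%, and H3K4me3 at 49 (69.0%), against 54.6%. H3K9me3 was at the ends of 0 of the 71 genes, against 2.70% of all protein-coding genes. Every one of the 23 genes with POLR1A had POLR2A at the same end and H3K4me3 at an end (32.4% with both polymerases at 1 end, against 10.7%). Of the 44 genes with POLR2A, 23 also carried POLR1A (52.3%), a share that was 26.0% over all protein-coding genes with POLR2A. All 44 genes with POLR2A also had H3K4me3, which held for 96.3% of all genes with POLR2A. H3K4me3 without POLR2A was at 5 of the 71 genes, a smaller share than the 14.9% of all protein-coding genes. The remaining 22 genes had no peak of any list at their ends (42.8% of all protein-coding genes had none). The members are named by symbol and are no replicates, so these shares describe the 4 lists and carry no p.

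**Figure D1:**
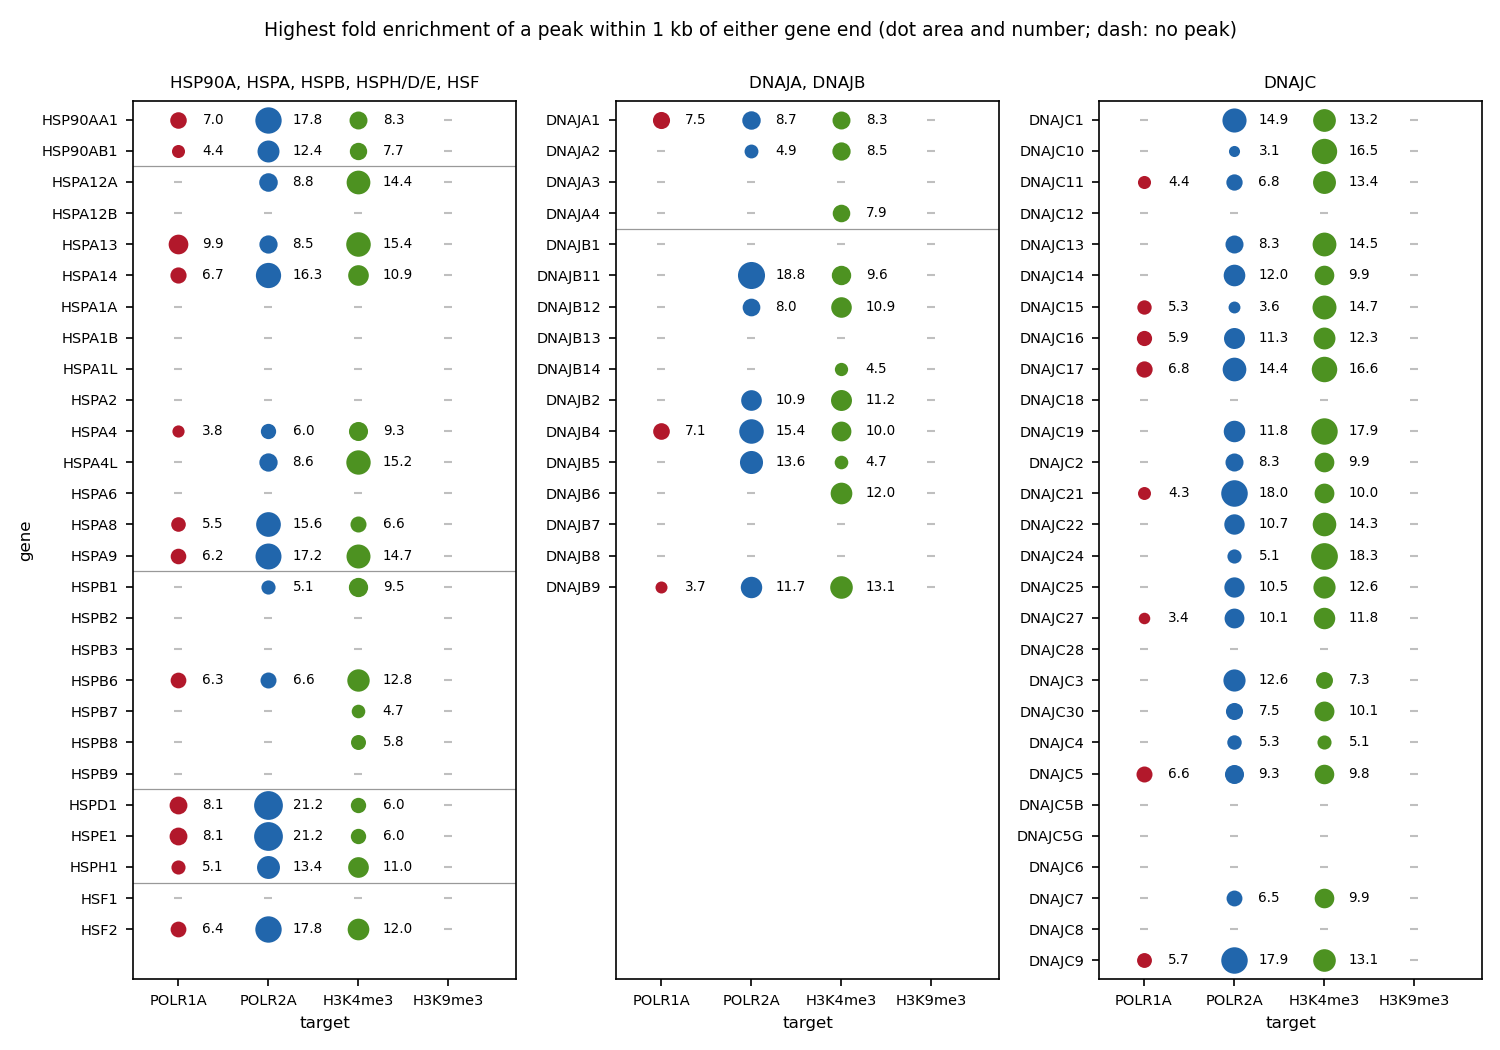
Fold enrichment of the highest peak within 1 kb of either gene end, for each of the 71 genes (rows, by family) and each of the 4 targets (columns); dot area and the number beside it give the linear fold enrichment, and a dash means that no peak was listed. The H3K9me3 column is empty, and every gene with a POLR1A dot has POLR2A and H3K4me3 dots, from HSPA13 with 9.9 for POLR1A to DNAJC27 with 3.4.

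The families differed in how many of their genes carried POLR1A. Both HSP90A genes did, as did all 3 genes of the group of HSPH1, HSPD1 and HSPE1. POLR1A was at 5 of 13 HSPA genes (38.5%), 1 of 7 HSPB genes (14.3%), 1 of 4 DNAJA genes, 2 of 12 DNAJB genes (16.7%), 8 of 28 DNAJC genes (28.6%) and 1 of the 2 HSF genes. The DNAJC family had POLR2A at 21 of 28 genes (75%). That was a larger share than in the DNAJB family (6 of 12) or the HSPA family (7 of 13). Yet 8 of those 21 DNAJC genes had POLR1A (38.1%), where 5 of 7 in the HSPA family did (71.4%). Over all protein-coding genes POLR1A was at 11.2%, POLR2A at 41.3%, and POLR1A at 26.0% of those with POLR2A. With so few genes a family, 1 gene moves the family shares widely. The family counts also depend on the rule of gene ends. HSPA2 (5.85) and DNAJB1 (6.09 and 10.7) had POLR1A at annotated starts inside their spans and are counted here as without it. HSPA1A, HSPA1B and HSPA1L, also counted as without it, lie in a gap of the lists described below. Several of the POLR1A peaks counted here, in the HSPA, DNAJC and other families, were also weak calls with a −log10 q below 5.

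**Figure D2:**
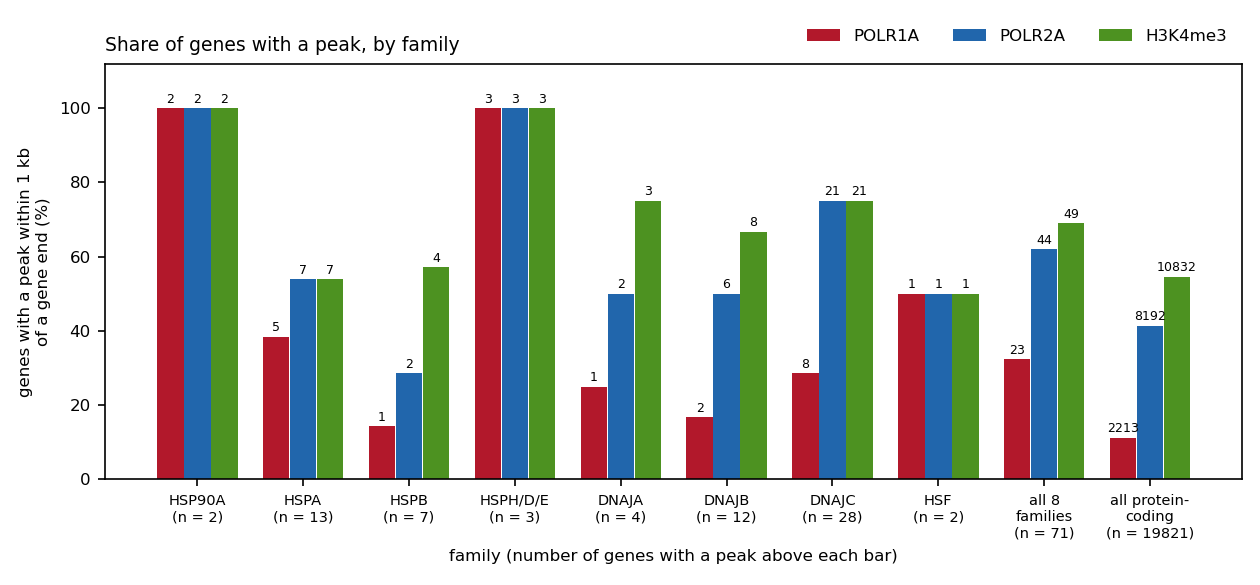
Share of genes (percent) with a peak within 1 kb of a gene end, for POLR1A, POLR2A and H3K4me3 (bars), by family, for all 71 genes and for all 19821 protein-coding genes; the number of genes stands above each bar. POLR1A bars reach 100% in the HSP90A and HSPH/D/E families and lie at 14.3% for HSPB, with 32.4% over the 71 genes and 11.2% over all protein-coding genes.

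The mitochondrial chaperonin pair had the highest POLR2A fold enrichment of the 71 genes. HSPD1 (chromosome 2, 197486584 to 197500274) and HSPE1 (197500379 to 197503449) are transcribed away from a shared promoter, and they share 1 peak of each kind. POLR1A had a fold enrichment of 8.14 there, POLR2A of 21.2 and H3K4me3 of 6.03. The POLR1A peak (197499889 to 197500314) lay wholly inside the POLR2A peak (197499834 to 197500418), and the summits coincided (0 bp apart). The overlapping joined heat shock elements printed for HSPD1, at 197500068 to 197500085, lay under both peaks, 62 and 67 bp from the summits. The readthrough gene HSPE1-MOB4 shares the same peaks and was not counted. HSPH1, the nucleotide exchange factor of the HSP110 group, had 5.10 for POLR1A, 13.4 for POLR2A and 11.0 for H3K4me3. Its POLR1A summit lay 438 bp inside the gene and its POLR2A summit 22 bp before the start, 460 bp apart.

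Both cytosolic HSP90 genes carried POLR1A at their upstream end. HSP90AA1 (chromosome 14, 102080742 to 102139749), the stress-inducible form, had 7.01 for POLR1A, 17.8 for POLR2A and 8.26 for H3K4me3, with summits 2 bp apart. That end is 1 of 2 annotated starts and is shared with WDR20. The other start, at 102087044, carries the joined heat shock element (102087120 to 102087132). The element lay under a POLR2A peak of 6.51 with the summit 57 bp away. An H3K4me3 peak of 5.95 (102086829 to 102087123) overlapped only the edge of the element. The nearest POLR1A peak to that element was 52230 bp away, at the upstream start. POLR1A was therefore listed at the start without the element and not at the start with it. HSP90AB1 (chromosome 6, 44246194 to 44253883), the constitutive form, had a weak POLR1A peak of 4.35, with POLR2A at 12.4 and H3K4me3 at 7.72. It had 2 POLR2A peaks at this end. The POLR1A peak (44246288 to 44246576) overlapped the weaker of them (44246162 to 44246447), which had a value of 7.11 and a summit 1 bp from that of POLR1A. The stronger POLR2A peak, with 12.4, lay downstream (44246660 to 44247182), did not overlap POLR1A, and had its summit 747 bp away. The joined elements of HSP90AB1 lay further inside, 1202 and 1255 bp from the POLR1A peak and 596 and 649 bp from the stronger POLR2A peak, under H3K4me3.

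Of the HSPA genes, those with POLR1A were HSPA4, HSPA8, HSPA9, HSPA13 and HSPA14. HSPA13, a microsomal HSP70 relative on chromosome 21 (14371115 to 14383146), had the highest POLR1A value at a gene end of the 71 genes, 9.94. That value stood in the 93.0th percentile of the POLR1A list. An inner peak of DNAJB1, described below, was higher, at 10.7. The POLR2A value of HSPA13 was 8.51 and its H3K4me3 value 15.4. HSPA13 and DNAJC15 were the 2 of 23 ends (8.70%) with a higher number for POLR1A than for POLR2A, against 2.87% of such ends over all protein-coding genes, with each number from its own list and scale. HSPA14, an HSP70 that works at the ribosome, had 6.70 for POLR1A, 16.3 for POLR2A and 10.9 for H3K4me3 at an end shared with CDNF and MSANTD7. HSPA9, the mitochondrial HSP70, had 6.22 for POLR1A, 17.2 for POLR2A and 14.7 for H3K4me3. HSPA8, the constitutive cytosolic HSP70, had 5.46 for POLR1A, 15.6 for POLR2A and 6.57 for H3K4me3. At HSPA8 the distal of its joined elements (123062354 to 123062366) lay under both polymerase peaks, 69 bp from the POLR1A summit, and the proximal one (123062179 to 123062191) lay under POLR2A and 83 bp outside the POLR1A peak. HSPA4, a nucleotide exchange factor, had a weak POLR1A peak of 3.81 beside POLR2A at 5.99 and H3K4me3 at 9.30. HSPA12A and HSPA4L had POLR2A without POLR1A, at 8.82 and 8.58, with strong H3K4me3 of 14.4 and 15.2.

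The remaining 6 HSPA genes had no peak at their ends: HSPA1A, HSPA1B, HSPA1L, HSPA2, HSPA6 and HSPA12B. HSPA1A and HSPA1B, the main heat-inducible HSP70 genes, are near-identical copies that lie with HSPA1L on chromosome 6 (31809619 to 31830254), so their values are uncertain in any case. The gap around them was far wider than the genes. The nearest POLR2A peaks lay 3211745 bp below and 1141658 bp above the locus, and none of the 145 protein-coding genes in this interval had H3K4me3 at an end. Within 500 kb of the locus there were 62 protein-coding genes, of which 0 had POLR2A at an end. The nearest H3K4me3 peak, with a value of 11.4, was 5344 bp above HSPA1B. Alternate contigs of chromosome 6 held 2 POLR1A, 17 POLR2A, 67 H3K4me3 and 12 H3K9me3 peaks. Whether reads of this region were lost to such contigs was not tested. The nearest H3K9me3 peaks lay 3473628 bp below and 1727267 bp above the locus. No listed peak of any target at these 3 genes therefore cannot be told apart from a gap in the lists over the region. HSPA6, a strictly inducible HSP70 gene on chromosome 1, had its nearest POLR2A peak 2068 bp away at 2.75. A joined element stands before its start.

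HSPA2 was missed by the rule on gene ends and had peaks at its annotated start. The span of HSPA2, an HSP70 gene best known from testis, begins upstream of the start in the promoter table (chromosome 14, 64540741). At that start POLR1A was listed at 5.85, POLR2A at 11.9 and H3K4me3 at 8.33. DNAJB1, the main heat-inducible J-domain gene of the cytosol, also had all 3 of these at annotated starts and none at its ends. DNAJC6, which encodes the clathrin uncoating factor auxilin, had a weak POLR2A peak of 2.72 at its inner start (65309543) and neither POLR1A nor H3K4me3 there. The annotated span of DNAJB1 (chromosome 19, 14514769 to 14560391) holds 3 starts, all inside. At the start printed above (14518397) POLR1A was listed at 6.09, in a peak from 14518600 to 14518890, with POLR2A at 9.46 and H3K4me3 at 10.2. At the start further upstream (14529271) the values were 10.7, 18.3 and 17.5, in peaks that TECR shares. With all annotated starts in place of gene ends, POLR1A was at 23 of 63 genes (36.5%), against 12.0% of all protein-coding genes in the table. POLR2A was at 43 (68.3%, against 44.0%), H3K4me3 at 46 (73.0%, against 58.5%) and H3K9me3 at 0 (against 2.35%). This count was chosen after seeing the data. DNAJC3 had an inner POLR1A peak of 4.25, far from its ends, with H3K4me3 of 15.3 and POLR2A of 7.01 there.

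Among the small chaperone genes, POLR1A was at 1 of 7 (14.3%, against 11.2% of all protein-coding genes) and POLR2A at 2 of 7 (28.6%, against 41.3%). HSPB1, which encodes HSP27 and is heat-inducible, had POLR2A at 5.13 and H3K4me3 at 9.51 without POLR1A. HSPB6 was the 1 gene of this family with POLR1A, at 6.34, with POLR2A at 6.55. Those peaks lay 917 and 937 bp before its start and are shared with the neighbour PROSER3, which makes HSPB6 the last gene inside the 1 kb limit. The next gene outside the limit for POLR1A was DNAJB7, 2598 bp from a peak of 7.34. HSPB7 and HSPB8 had H3K4me3 alone, at 4.72 and 5.75. The peak of HSPB7 lay 624 bp beyond its 3′ end, and none was listed within 1 kb of its annotated start. HSPB2, HSPB3 and HSPB9 had no peak.

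Among the DNAJA and DNAJB genes, POLR1A was found at DNAJA1, DNAJB4 and DNAJB9. DNAJA1, a cytosolic partner of HSP70, had 7.48 for POLR1A, 8.72 for POLR2A and 8.25 for H3K4me3, at an end shared with APTX. DNAJB4, also cytosolic, had 7.10, 15.4 and 10.03 for the same targets at an end shared with FUBP1, with coinciding summits. DNAJB9, a partner of the HSP70 of the endoplasmic reticulum, had a weak POLR1A peak of 3.70 beside POLR2A at 11.7, shared with THAP5. The highest POLR2A value without POLR1A of all 71 genes was at DNAJB11, a folding factor of the endoplasmic reticulum, with 18.8 and H3K4me3 of 9.64. DNAJB5 followed in its family with a POLR2A value of 13.6, at its downstream end, and DNAJB2 with 10.9. DNAJB12, a membrane protein of the endoplasmic reticulum, had POLR2A at 8.02 and DNAJA2 at 4.92. DNAJA3, DNAJB1, DNAJB7, DNAJB8 and DNAJB13 had no peak at their ends. DNAJA4 (7.89), DNAJB6 (12.0) and DNAJB14 (4.51) had H3K4me3 alone at their ends. DNAJB6, which suppresses protein aggregation, thus had a joined heat shock element under H3K4me3 with the nearest POLR2A peak 3123 bp away.

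The DNAJC genes serve varied compartments, and POLR1A was found at 8 of them. DNAJC17, tied to RNA splicing, had 6.80 for POLR1A, 14.4 for POLR2A and 16.6 for H3K4me3, shared with ZFYVE19. DNAJC5, the cysteine string protein of secretory vesicles, had 6.56, 9.30 and 9.78, and a further POLR1A peak of 5.96 inside the gene. DNAJC16 had 5.92, 11.3 and 12.3. DNAJC9, a histone chaperone, had 5.67 for POLR1A, 17.9 for POLR2A and 13.1 for H3K4me3. These 4 genes had both polymerases close together, with summits between 0 and 30 bp apart. DNAJC15, of the import motor of mitochondria, had 5.28 for POLR1A and only 3.63 for POLR2A, with H3K4me3 at 14.7. DNAJC21, whose yeast relative acts in ribosome assembly, had a strong POLR2A peak of 18.03 with a weak POLR1A peak of 4.31. DNAJC27 had the lowest POLR1A value, 3.40, beside POLR2A at 10.1. DNAJC11, a mitochondrial membrane protein gene, had its POLR1A peak of 4.37 at the downstream end, shared with THAP3, while its own start had POLR2A at 6.81 and no POLR1A. Without POLR1A, the highest POLR2A values were at DNAJC1 (14.9), DNAJC3 (12.6) and DNAJC14 (12.0). The other 10 DNAJC genes with POLR2A alone ranged from 3.15 at DNAJC10, a reductase of the endoplasmic reticulum, to 11.8 at DNAJC19, also of the mitochondrial import motor. DNAJC5B, DNAJC5G, DNAJC6, DNAJC8, DNAJC12, DNAJC18 and DNAJC28 had no peak at their ends.

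Of the regulators, HSF2 (chromosome 6, 122399551 to 122433119) had POLR1A at 6.37, POLR2A at 17.8 and H3K4me3 at 12.0, with polymerase summits 30 bp apart. HSF1, the main factor of the heat shock response, had no peak of any list at its ends. Its nearest POLR2A peak lay 22157 bp away and its nearest H3K4me3 peak 99181 bp away, and 22 of the 47 other protein-coding genes within 500 kb had POLR2A at an end. Its annotated starts were not analysed here.

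H3K9me3 was absent from all ends but present in the span of 4 of the 71 genes, against 13.6% of all protein-coding genes. DNAJC1 had a peak of 6.44, DNAJC15 one of 4.36, HSP90AA1 one of 4.55, and DNAJC3 a pair of 4.58 and 5.13. All lay more than 11 kb from a gene end, the nearest 11421 bp away in DNAJC3. In DNAJC15 the H3K9me3 peak (43057913 to 43058441 on chromosome 13) overlapped a POLR2A peak of 10.6 inside the gene (43058162 to 43058507), stronger than the POLR2A peak of 3.63 at its start. The closest H3K9me3 peak to an end of any of the 71 genes lay outside HSPD1, 1660 bp away, at 4.76.

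POLR2A was stronger at the genes with POLR1A than at those without. The 23 genes with POLR1A had a median POLR2A fold enrichment of 13.4 (range 3.63 to 21.2), and the 21 with POLR2A alone had 8.58 (range 3.15 to 18.8). Over all protein-coding genes the medians were 13.2 with POLR1A and 7.79 without. The medians of H3K4me3 were close, at 11.0 with POLR1A and 10.9 without, and at 11.3 and 11.5 over all protein-coding genes. All protein-coding genes with POLR2A were then put into 5 classes of equal size by POLR2A fold enrichment. In the strongest class (13.7 to 34.5) 11 of 13 heat shock and DNAJ genes had POLR1A (84.6%), against 58.9% of all genes. In the next class 4 of 11 did (36.4%), against 34.8%. In the middle class 4 of 9 did (44.4%), against 19.6%, then 3 of 5 (60%) against 11.6%, and in the weakest 1 of 6 (16.7%) against 4.88%. Over all genes the share rose in every class, whereas in the heat shock and DNAJ genes it was lower in the second strongest class than in both classes below it. The share was above that of all genes in each class, though barely in the second strongest, and the classes hold few genes. The exceptions in the strongest class were DNAJB11 and DNAJC1. Where POLR1A was present its own strength was ordinary, with a median of 6.22 over the 23 genes and 6.08 over all 2213 genes with POLR1A. POLR2A was stronger than usual, at a median of 10.8 over 44 genes and 8.87 over all 8192.

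**Figure D3:**
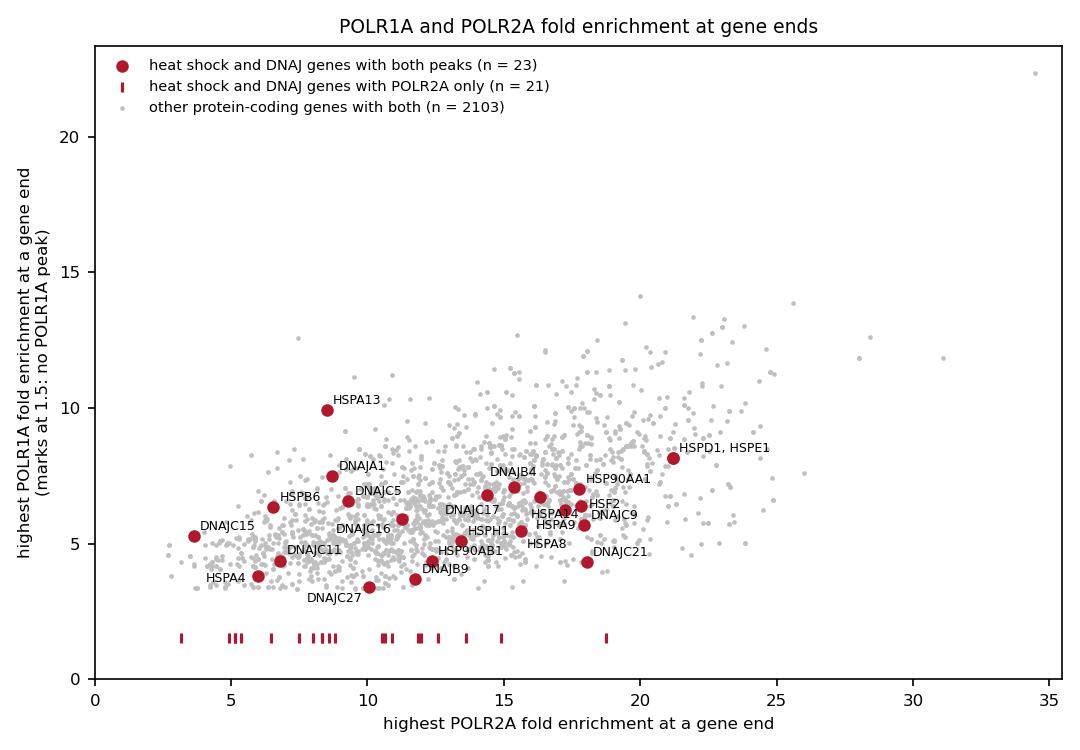
Highest POLR1A fold enrichment (vertical axis) against highest POLR2A fold enrichment (horizontal axis) at gene ends, both linear and each from its own list, for the 23 heat shock and DNAJ genes with both (red points), the 21 with POLR2A only (red marks placed at 1.5) and the other protein-coding genes with both (grey). The red points lie within the grey cloud, and HSPA13 (9.94 for POLR1A at 8.51 for POLR2A) lies near its upper edge.

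**Figure D4:**
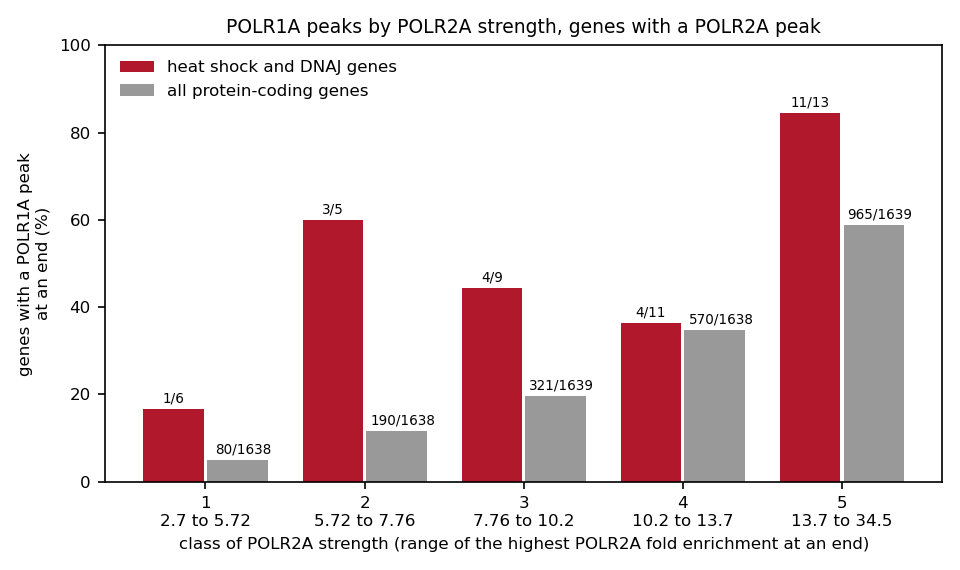
Share of genes (percent) with a POLR1A peak at an end, in 5 classes of equal size by POLR2A fold enrichment from weak to strong, for heat shock and DNAJ genes (red, left) and all protein-coding genes with POLR2A (grey, right); counts stand above the bars. The grey share rises from 4.88% to 58.9%, and the red share is 84.6% in the strongest class and 16.7% in the weakest.

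The polymerase peaks sat together at gene starts. Of the 22 genes with POLR1A and a known strand, 21 had it at the 5′ end, and DNAJC11 alone had it at the 3′ end. Over all protein-coding genes with a known strand, 1776 of the 1876 with POLR1A had it at the 5′ end, a similar share. At the 23 ends with both polymerases the POLR1A peak overlapped a listed POLR2A peak in all 23 cases, against 98.4% of such ends over all protein-coding genes. With only the highest peak of each polymerase, 22 of the 23 overlapped (95.7%), against 97.5% over all genes, and HSP90AB1 was the exception. Summits of the highest peaks lay a median of 30 bp apart (0 to 747 bp), against 66 bp over all genes. POLR1A peaks were the narrower, with a median width of 313 bp (306 bp over all genes), where POLR2A had 581 bp (474 bp over all genes). At 10 of the 23 genes (43.5%) the POLR1A peak also lay within 1 kb of another protein-coding gene, as it did for 42.2% of all genes with POLR1A. For these genes the lists do not tell to which gene the peak belongs. Besides HSPD1 and HSPE1, which share with each other, the neighbours were THAP3, FUBP1, THAP5, APTX, CDNF with MSANTD7, WDR20, ZFYVE19 and PROSER3.

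**Figure D5:**
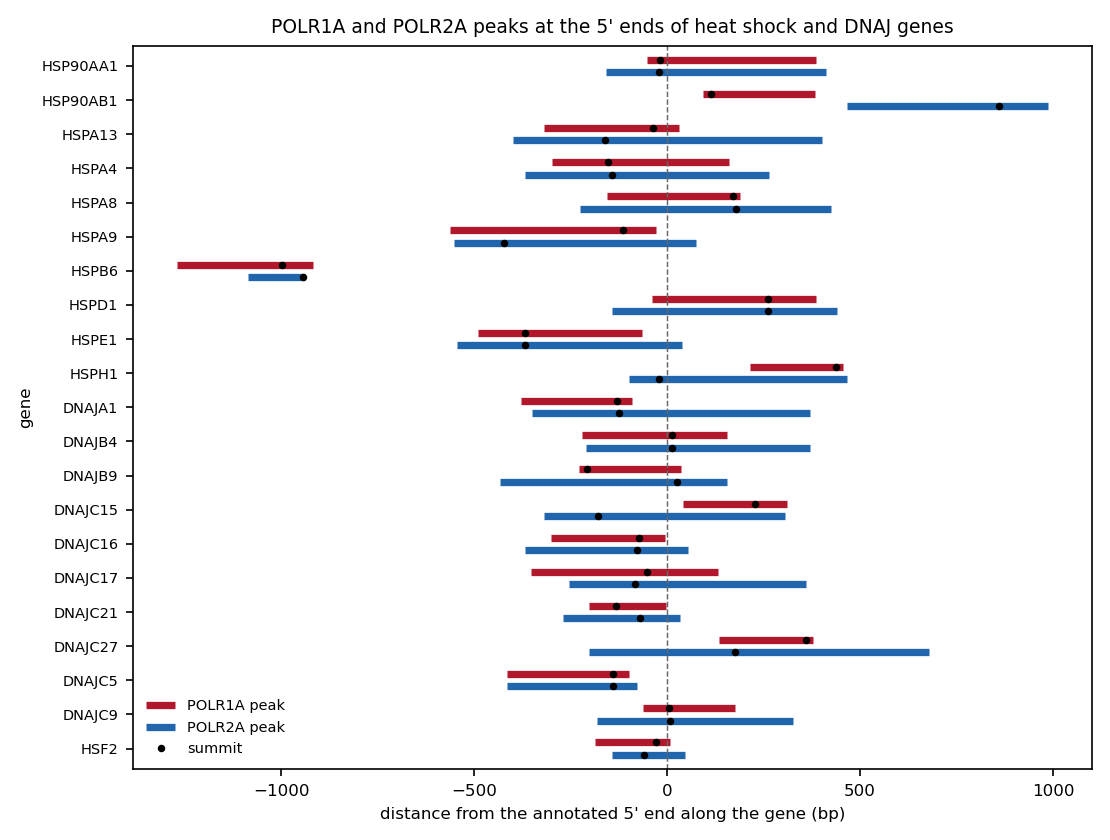
Span (bars) and summit (black points) of the highest POLR1A peak (red, upper bar) and POLR2A peak (blue, lower bar) relative to the annotated 5′ end (0, dashed line), in bp along the gene, for the 21 genes with POLR1A at that end. The bars of HSP90AB1 lie apart because its weaker POLR2A peak, which overlaps POLR1A, is not drawn; those of the other genes overlap, and those of HSPB6 lie farthest upstream.

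Strict peaks left fewer genes. With only peaks whose −log10 q reached 5, POLR1A was found at 12 genes (16.9%), against 5.36% of all protein-coding genes. They were HSP90AA1, HSPA13, HSPA14, HSPB6, HSPD1, HSPE1, DNAJA1, DNAJB4, DNAJC5, DNAJC16, DNAJC17 and HSF2. The POLR1A peaks of HSPA4, HSPA8, HSPA9, HSPH1 and HSP90AB1 fell below this limit. So did those of DNAJB9, DNAJC9, DNAJC11, DNAJC15, DNAJC21 and DNAJC27. The HSPA family thus kept only HSPA13 and HSPA14, and the DNAJC family only DNAJC5, DNAJC16 and DNAJC17. The HSP90A family and the group of HSPH1, HSPD1 and HSPE1 no longer had POLR1A at all their genes. The differences between families given above therefore rest in part on weak peaks. Among genes with such a POLR2A peak, 12 of 38 had such a POLR1A peak (31.6%), against 16.1%.

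The partners of these chaperones were a list of 42 co-chaperones, exchange factors and related genes. POLR1A was at 12 of 42 (28.6%, against 11.2% of all protein-coding genes) and POLR2A at 30 (71.4%, against 41.3%). H3K4me3 was at 35 (83.3%, against 54.6%) and H3K9me3 at 0 (against 2.70%). Of the 30 with POLR2A, 12 had POLR1A (40%), where the heat shock and DNAJ genes had 52.3% and all protein-coding genes 26.0%. The highest POLR1A values were at STIP1, which links HSP70 to HSP90 (9.58, with POLR2A at 20.1), LONP1, a mitochondrial protease (8.63), HSPBP1, an HSP70 exchange factor (8.41), SUGT1, a partner of HSP90 (8.38), and TIMM44, which anchors HSPA9 to the import channel (8.25). ST13 had 7.34, in the peak that lies nearest to DNAJB7. BAG1 (POLR2A 18.8), GRPEL1 (17.1) and SEC63 (16.1), the last a J-domain protein of the endoplasmic reticulum, had strong POLR2A without POLR1A. BAG6 lies in the interval of chromosome 6 without a listed POLR2A peak and had no peak of any list at its ends.

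As a check of the cell line, 7 of 9 epithelial genes had both POLR2A and H3K4me3 at an end, with EPCAM at 12.5 for POLR2A, and CDX1 and VIL1 had neither. POLR2A was at 0 of 7 fibroblast, 1 of 7 leukocyte, 0 of 5 endothelial and 3 of 5 neuronal genes, with CD14 at 2.75, SYT1 at 6.96, RBFOX3 at 5.68 and TUBB3 at 4.23. H3K4me3 was at 1 of 7 fibroblast (COL1A1, 8.87), 0 of 7 leukocyte and 0 of 5 endothelial genes. It was at 2 of 5 neuronal genes, SYT1 (11.2) and TUBB3 (4.36). Over all protein-coding genes POLR2A was at 41.3% and H3K4me3 at 54.6%. POLR1A was at none of these marker genes, against 11.2% of all protein-coding genes.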

How the data were processed

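The 4 peak lists were deposited by the authors, in the narrowPeak format with peak names that hold MACS2, per the file contents. Fold enrichment is a linear ratio, and −log10 q values stand beside it, as the authors deposited them. The H3K4me3 list belongs to 1 sample. The other 3 were matched to their targets by the names of their peaks and name no replicate. Caller settings, control, pooling and the treatment of reads with several matches are not stated in the labels or the lists. Read depth is unknown. The submitters' processing notes name GRCh38 and hg38.

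Peaks on chromosomes 1 to 22 and X were used: 3812 for POLR1A, 19997 for POLR2A, 17181 for H3K4me3 and 16414 for H3K9me3. The lowest −log10 q in each lay just above 1. Genes came from RefSeq (GRCh38.p14). Rows whose positions ran against the order of the chromosome were taken as scaffold positions and left out. A peak counted if it shared a base with the window of 1 kb on each side of a gene end, and the highest fold enrichment was kept. Strand and starts came from the RefSeq promoter table, which held 63 of the 71 genes. "HSP90A plus a digit" was read as HSP90A, a letter and a digit. Readthrough genes were left out.

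Named genes were every gene with POLR1A, up to 3 per family by POLR2A or by H3K4me3 without POLR2A, every gene with H3K9me3, and 9 known heat shock targets. HSPA2, HSPA6, HSF1 and others without peaks were named after their values were seen. The genes, lists and comparisons were chosen with earlier results of these data known. Interval code was tested on simulated data. Shares are descriptions, since lists without replicate values allow no test. Python 3.11.15 and pandas 2.3.3 were used. Heat shock elements and TATA boxes were searched on both strands of the 250 bases before each start. Alternatives were other windows, stricter peaks, lists of equal length, summits, 5′ ends, readthrough genes, shared peaks counted once and all annotated starts.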

Additional observations from a re-analysis of the deposited data

How the results depend on the processing

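Over 9 alternatives the share of genes with POLR1A ranged from 16.9% to 36.5%. Its base was 71 genes, 63 where starts or 5′ ends were used, or 73 with readthrough genes. The share was above that of all protein-coding genes in each of the 9. So were the shares of POLR2A (35.2% to 68.3%), H3K4me3 (22.5% to 73.0%) and POLR1A among genes with POLR2A (31.6% to 64%). Not all 9 could move these shares. The POLR1A list is the shortest, so lists of equal length left it uncut. Counting shared peaks once changed the counts but not the shares of the 71 genes. The POLR1A share was thus fixed at its main value in both settings, and those of POLR2A and H3K4me3 in the latter. Of 54 values, 48 stayed within 1.5 times the main count or within the exact 95% interval of the share (36.7% to 67.5%). That interval treats the 44 genes with POLR2A as independent draws, which they are not. It served only as a yardstick here and is no test. At a −log10 q of at least 5, POLR1A was at 12 genes (16.9%, against 5.36% of all genes). Both polymerases shared an end at 12 (16.9%, against 5.31%). The share with POLR1A among genes with POLR2A was 31.6% (16.1% of all genes). With lists of equal length (3812 peaks each), POLR2A was at 25 genes (35.2%, against 17.3% of all genes), since that list was shortened. H3K4me3, shortened too, was at 16 genes (22.5%, against 17.8%). The share with POLR1A among genes with POLR2A was 64% in that setting, against 46.1% of all genes. With a window of 2 kb, H3K9me3 was at 1 gene, HSPD1 (1.41%, against 3.99% of all genes). The count over all annotated starts was added after seeing the data. No paired analysis was possible because the lists carry no value for a replicate, and for the same reason no replicate could be left out. Depth is unknown, so a gene without a peak is one at which none was listed.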

Other observations

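The genome also holds many pseudogenes of these chaperone genes, mostly copies of their messenger RNA. Of 106 such pseudogenes of 14 of the 71 genes, 1, DNAJC19P5, had a POLR2A peak within its span (0.943%), against 2.23% of all 16474 pseudogenes. The other lists had a peak in 0 of the 106, against 0.577% of all pseudogenes for POLR1A, 2.11% for H3K4me3 and 2.49% for H3K9me3, so these counts are too small to set the copies apart.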
